A study of Mus musculus with 6 samples.

Results

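The 10 genes described here encode cyclins, kinases, a phosphatase and a transcription factor that carry a cell from DNA replication into mitosis: *Ccna1*, *Ccna2*, *Ccnb1*, *Ccnb2*, *Cdk1*, *Cdk2*, *Aurka*, *Plk1*, *Cdc25b* and *Foxm1*. They were found by gene symbol in a count table of 54532 mouse genes, where each symbol matched a single row. All 10 passed the filter on low counts and were among the 17505 genes tested. Poly(A) RNA was sequenced from the cerebellum at postnatal day 1 (P1). The 3 mutant libraries came from *Nestin-cre;Tox3 f/f* mice, which carry the floxed *Tox3* allele on both chromosomes and a Cre recombinase under the *Nestin* promoter, active in neural progenitors and their descendants across the nervous system. The 3 control libraries came from mice with the *Tox3 f/f* genotype. All 6 libraries thus shared the floxed allele, and only the mutants were labelled as carrying Cre. An effect of the Cre transgene and an effect of the deletion therefore cannot be told apart. The Cre line was B6.Cg-Tg(Nes-cre)1Kln/j, and the number of cerebella behind each bulk library is not given in the sources used here.

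Entry into mitosis is driven by Cdk1 bound to B-type cyclins, after A-type cyclins with Cdk2 and Cdk1 have carried the cell through S phase and G2. The kinases Wee1 and Myt1 hold Cdk1 inactive by phosphorylation, Cdc25 phosphatases reverse this, and Aurora A and Polo-like kinase 1 promote the switch. Most of these genes are transcribed late in the cell cycle under B-Myb, the MuvB complex and Foxm1, so that their mRNAs are abundant in dividing cells and scarce in neurons. In the neonatal cerebellum a large share of dividing cells are granule neuron progenitors (GNPs), which line the outer surface, depend on the transcription factor Atoh1 and multiply in response to Sonic hedgehog.

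Each library held between 15391854 and 17178478 gene counts, and 3 counts corresponded to at most 0.196 CPM. CPM, the scale of most levels given here, are gene counts relative to a library total corrected by the trimmed mean of M-values. *Tox3* itself stood at 64.3, 63.0 and 64.4 CPM in controls and 55.3, 63.2 and 59.2 CPM in mutants. These ranges overlapped, and the count takes in every exon, so it does not check which libraries carry the deletion. *Atoh1* fell from between 30.9 and 32.6 CPM in controls to between 0.249 and 0.577 CPM in mutants. Both sexes were present: Y-chromosome genes were expressed in 1 control and 2 mutant libraries. In mutant replicate 3 the choroid plexus marker *Ttr* reached 711 CPM against 6.06 CPM in mutant replicate 2. The cerebellar genes *En1*, *En2*, *Zic1* and *Zic2* were detected in every library, at a summed 2207 to 2336 CPM in controls and 1759 to 1863 CPM in mutants. Most of this sum was *Zic1*, and all 4 genes were lower in every mutant than in every control. *En1* alone of them was called downregulated by the edgeR test given below (log2 fold change -1.54, adjusted p = 0.000234). Its mean was 32.7 CPM in controls and 11.3 CPM in mutants.

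Promoter sequences are shown first because late cell cycle genes are classically recognised by a pair of short elements near the start site, the cell cycle genes homology region (CHR) bound by MuvB and the CCAAT box bound by NF-Y. RefSeq windows running from 250 bases before to 50 bases after the start site (assembly GRCm38.p6) were found for 8 of the 10 genes, with none for *Ccna2* and *Foxm1*. The bases upstream of the start site are printed 5′ to 3′ along the coding strand for the 4 genes whose window held both elements, with CHR and CCAAT matches on either strand in capitals. They lie at chr10:69352913-69353162 (*Cdk1*, minus strand), chr9:70421555-70421804 (*Ccnb2*, minus strand), chr2:172370571-172370820 (*Aurka*, minus strand) and chr7:122159185-122159434 (*Plk1*, plus strand).
Cdk1 upstream: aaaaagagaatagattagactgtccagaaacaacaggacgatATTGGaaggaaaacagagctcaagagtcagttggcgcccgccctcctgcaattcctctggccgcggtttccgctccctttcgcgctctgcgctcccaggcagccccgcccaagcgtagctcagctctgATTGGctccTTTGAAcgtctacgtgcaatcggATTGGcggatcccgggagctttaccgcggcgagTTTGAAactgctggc
Ccnb2 upstream: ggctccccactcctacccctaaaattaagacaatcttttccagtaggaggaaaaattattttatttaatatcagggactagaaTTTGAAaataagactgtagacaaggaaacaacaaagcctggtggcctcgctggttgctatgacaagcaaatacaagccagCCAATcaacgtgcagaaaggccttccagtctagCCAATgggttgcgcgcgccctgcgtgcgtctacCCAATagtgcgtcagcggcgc
Aurka upstream: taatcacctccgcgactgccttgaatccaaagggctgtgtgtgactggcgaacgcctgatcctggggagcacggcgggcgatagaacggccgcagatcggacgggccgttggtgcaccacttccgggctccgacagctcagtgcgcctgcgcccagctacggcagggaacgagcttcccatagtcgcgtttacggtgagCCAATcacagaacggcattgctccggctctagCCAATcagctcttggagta
Plk1 upstream: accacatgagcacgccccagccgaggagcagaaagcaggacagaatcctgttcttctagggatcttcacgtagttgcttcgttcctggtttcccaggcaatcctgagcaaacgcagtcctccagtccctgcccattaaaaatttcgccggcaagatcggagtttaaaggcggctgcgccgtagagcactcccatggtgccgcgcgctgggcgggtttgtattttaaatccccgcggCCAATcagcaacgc

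In *Cdk1* both CHR matches lay upstream of the RefSeq start. The *Aurka* and *Plk1* matches and the nearer one of *Ccnb2* fell just after it, and are printed as short windows with the CHR in capitals, from chr9:70421535-70421560, chr2:172370523-172370548 and chr7:122159455-122159480 on the same strands as above.
Ccnb2 CHR: cggcgcggtaTTTGAAtcgcggaccg
Aurka CHR: aaggagaaccTTTGAAttgtaacggc
Plk1 CHR: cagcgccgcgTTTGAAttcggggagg

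For contrast, the upstream bases of *Cdk2* (chr10:128705052-128705301, minus strand) held a single CCAAT match, in capitals, and no CHR.
Cdk2 upstream: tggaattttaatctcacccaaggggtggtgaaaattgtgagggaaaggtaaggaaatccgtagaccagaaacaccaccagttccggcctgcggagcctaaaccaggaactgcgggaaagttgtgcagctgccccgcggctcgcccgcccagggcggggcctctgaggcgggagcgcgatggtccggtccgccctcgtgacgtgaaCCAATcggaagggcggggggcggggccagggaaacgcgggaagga

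The motif letters searched on both strands were TTTGAA for the CHR, CCAAT for the NF-Y box, GCGGGAA for an E2F site, TAAACA for a forkhead site and CAGCTG for an Atoh1-type E-box. Each motif was counted separately, also where matches of different motifs overlapped. A CHR was found in 4 of the 8 windows, against 17.9% of all 32851 RefSeq promoters of the same length and 12% of the promoters of tested genes. A CCAAT box was found in all 8 windows, against 37.4% of all promoters and 37.2% of those of tested genes, and 4 windows held at least 2 (*Ccnb1*, *Ccnb2*, *Cdk1* and *Aurka*), against 11.7%. Both elements together occurred in *Ccnb2*, *Cdk1*, *Aurka* and *Plk1*, and in 6.95% of all promoters and 4.76% of those of tested genes. The E2F letters matched in *Cdk2* alone among the 8, at 2 places, against 4.60% of all promoters and 7.71% of those of tested genes. The forkhead letters matched in *Ccnb1* and the E-box letters in *Cdk2* and *Cdc25b*, against 13.4% and 16.3% of all promoters and 8.93% and 15.9% of those of tested genes. These are letter matches and no binding was measured here. The RefSeq start lay 446 bases inside the annotated 5′ end of *Ccna1* and 84 bases inside that of *Ccnb1*, so for these genes much of the window sits within the annotated gene. For *Cdk1* this distance was 26 bases, which takes in the nearer CHR match.

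**Figure D1:**
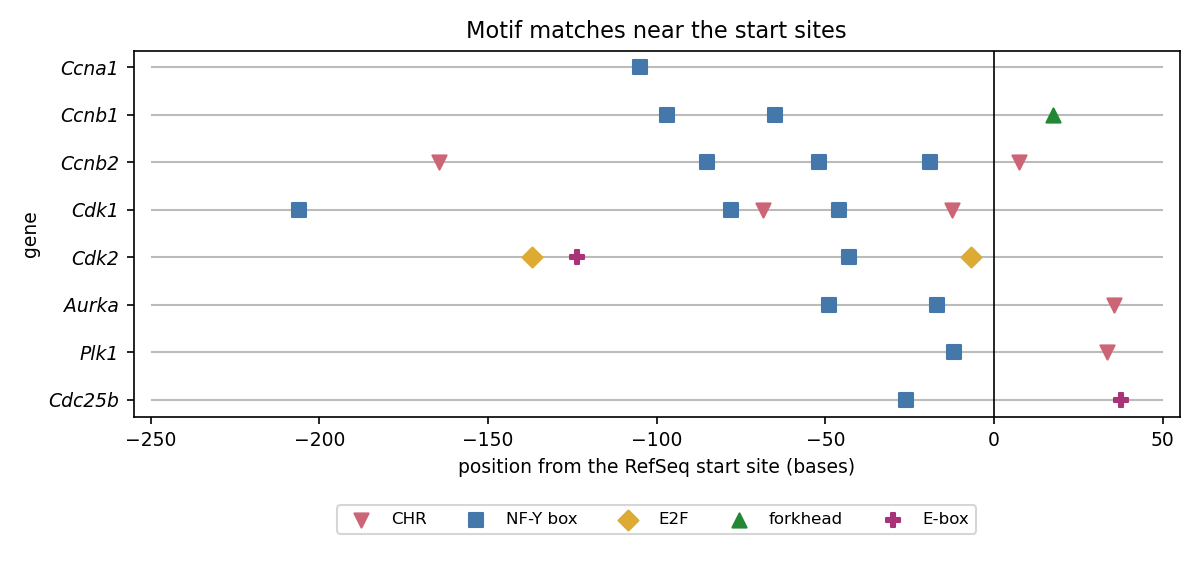
Positions of motif matches (markers, by motif) in the RefSeq promoter windows of 8 of the 10 genes, one row per gene, against distance from the RefSeq start site in bases. The CHR appears in the rows of *Ccnb2*, *Cdk1*, *Aurka* and *Plk1*, and a CCAAT (NF-Y) box in every row.

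Of the 10 genes, 7 were downregulated in mutant cerebella and 0 were upregulated. Calls needed both an adjusted p below 0.01 and a log2 fold change larger than 0.5 in size, by edgeR's quasi-likelihood test and Benjamini-Hochberg adjustment over all tested genes. Across all tested genes 3.63% were called downregulated and 3.03% upregulated, 6.66% in either direction. All 10 log2 fold changes were below 0, as were 50.9% of those of all tested genes. They had a median of -0.60, against -0.01 over all tested genes. In 9 of the 10 genes every mutant library lay below every control library, an arrangement seen in 20.1% of all tested genes. The same 9 had an adjusted p under 0.01, against 7.24% of tested genes that were lower with this p and no fold threshold. In whole tissue, fewer dividing cells and less of each mRNA per dividing cell cannot be told apart. The p-values measure the spread between libraries, which may be partly technical.

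**Figure D2:**
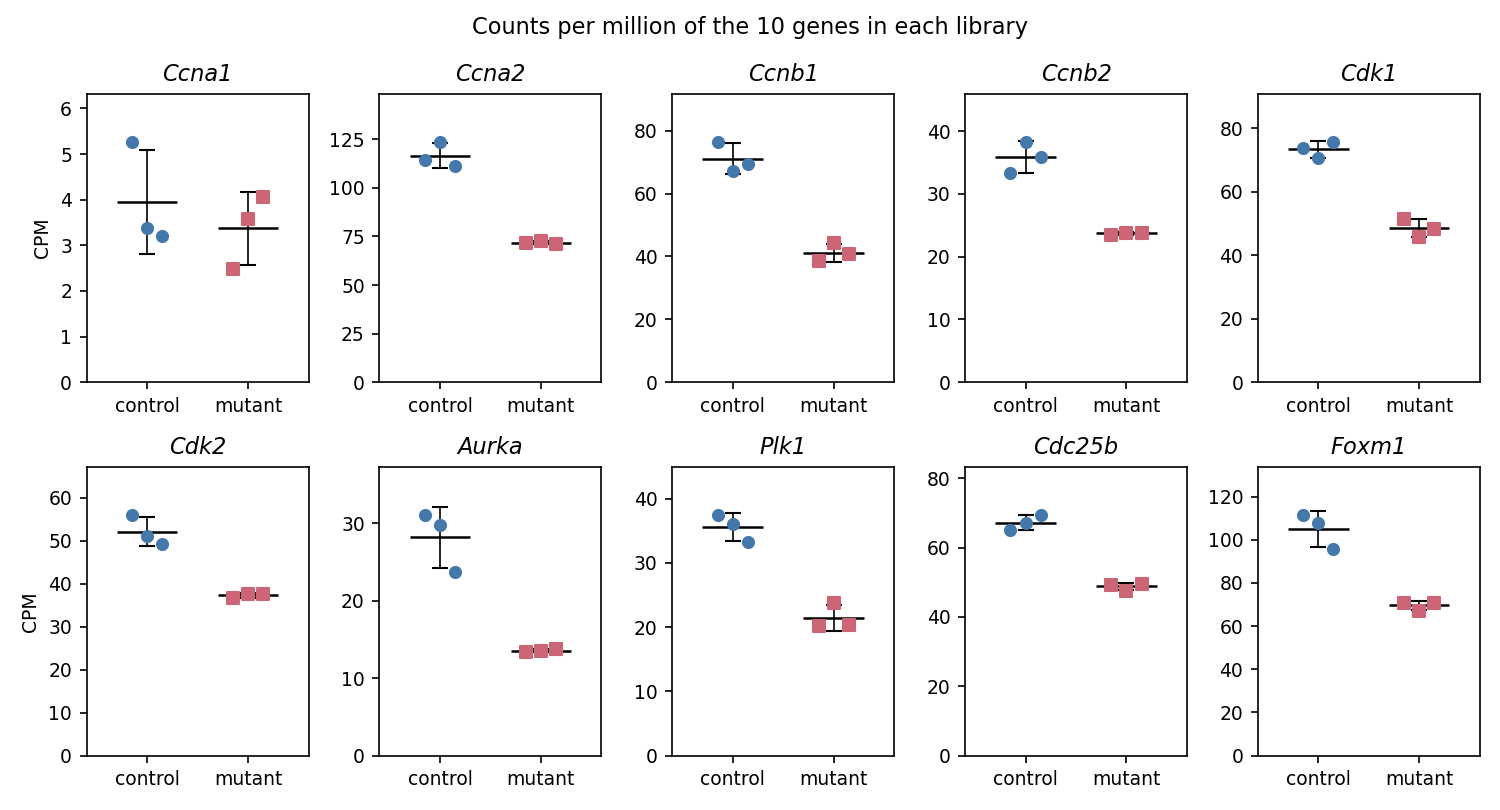
CPM of each of the 10 genes in each of the 6 libraries (points), with the mean and SD of the 3 control and 3 mutant libraries. *Ccna1* is the panel in which the groups overlap, between 2.48 and 5.27 CPM.

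The cyclins were read in the order in which they act. *Ccna2* (ENSMUSG00000027715, chr3:36564865-36572150, minus strand, GRCm38) encodes cyclin A2, the A-type cyclin of dividing somatic cells. It measured 115, 124 and 111 CPM in controls and 71.5, 72.7 and 71.3 CPM in mutants. The mutant libraries sat close together and far below the lowest control. Means were 117 ± 6.50 CPM in controls and 71.8 ± 0.729 CPM in mutants (SD, n = 3 each). The mutant SD was 1.01% of the mean, less than the 2.93% that counting alone would give, so it does not show low variability. The log2 fold change was -0.70 ± 0.06 (SE) with an adjusted p of 3.10e-05, the smallest among the 10 genes, so that mutants held 61.7% of the control level. *Ccna2* shares 510 exonic bases, 12.5% of its counted length, with *Exosc9* on the opposite strand. *Exosc9*, an exosome subunit, measured 31.3, 26.2 and 31.0 CPM in controls and 26.6, 28.7 and 27.7 CPM in mutants (adjusted p = 0.484). Whether reads were counted by strand is not given in the sources used here, so reads from shared bases cannot be told apart.

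*Ccnb1* (ENSMUSG00000041431, chr13:100778650-100786570, minus strand) encodes cyclin B1, the partner of Cdk1 that moves into the nucleus at mitotic entry. It stood at 76.6, 67.1 and 69.5 CPM in controls and 38.6, 44.3 and 40.8 CPM in mutants. The highest mutant library remained well under the lowest control. The log2 fold change was -0.79 ± 0.08 (adjusted p = 0.000112), leaving 58.0% of the control level. A processed copy, *Ccnb1-ps*, is 99.2% identical to *Ccnb1* over 1287 bases and held 7 to 18 counts per library against 655 to 1176 for *Ccnb1*. Few reads were thus assigned to the copy. Reads that match both cannot be told apart, and whether the copy affected the *Ccnb1* count was not tested. *Ccnb2* (ENSMUSG00000032218, chr9:70407692-70421547, minus strand), whose product cyclin B2 resides mainly at the Golgi, measured 33.3, 38.4 and 36.0 CPM in controls and 23.5, 23.9 and 23.9 CPM in mutants. Here too no mutant reached a control, and the mutant libraries were nearly equal. The mutant SD was 0.920% of the mean, again less than the 5.09% that counting alone would give. The log2 fold change of *Ccnb2* was -0.60 ± 0.08 (adjusted p = 0.000663). The related *Ccnb2-ps*, 81.2% identical over 809 bases, did not pass the test (46 to 89 counts per library, adjusted p = 0.338).

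*Ccna1* (ENSMUSG00000027793, chr3:55045469-55055501, minus strand) encodes cyclin A1, known mainly from the male germ line. With 43 to 81 counts per library it was by far the least abundant of the 10. It measured 5.27, 3.39 and 3.21 CPM in controls and 2.48, 3.58 and 4.05 CPM in mutants. The groups overlapped, with control replicate 1 highest and mutant replicate 1 lowest. The log2 fold change of -0.23 had a 95% interval from -0.82 to 0.35 and an adjusted p of 0.560. This interval takes in both 0 and the value of *Ccna2*, so no difference was detectable in these libraries. The SD was 28.9% of the mean in controls and 23.9% in mutants, more than the 12.8% and 13.6% that counting alone would give. Without control replicate 1 the log2 fold change of *Ccna1* turned to 0.027 (adjusted p = 0.955). The antisense *4931419H13Rik* shares 185 exonic bases with *Ccna1* (10.1% of its length) and held at most 1 count per library.

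The activity of the cyclin-dependent kinases is regulated largely at the protein level. *Cdk1* (ENSMUSG00000019942, chr10:69335146-69352938, minus strand) encodes the mitotic kinase. It measured 73.8, 70.6 and 75.8 CPM in controls and 51.3, 45.8 and 48.3 CPM in mutants. Each group spanned about the same narrow range, and the groups were separate. The log2 fold change was -0.60 ± 0.07 (adjusted p = 0.000198), with 66.1% of the control level in mutants. *Cdk2* (ENSMUSG00000025358, chr10:128697939-128705031, minus strand), the S phase kinase, measured 55.9, 51.1 and 49.3 CPM in controls and 36.7, 37.5 and 37.5 CPM in mutants. The groups did not overlap and the adjusted p was 0.00115, but the log2 fold change of -0.48 (95% interval from -0.65 to -0.32) did not reach the fold threshold. *Pmel*, opposite *Cdk2*, shares 34 exonic bases (0.547%) and held 10 to 19 counts per library. *Cdk2* passed the fold threshold when control replicate 3 was left out (log2 fold change -0.52, adjusted p = 0.00338) and with a covariate for summed Y-linked expression (-0.51, adjusted p = 6.22e-05).

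*Aurka* (ENSMUSG00000027496, chr2:172356190-172370535, minus strand) encodes Aurora A, the centrosomal kinase that activates Plk1. It had the largest fold change among the 10. Controls measured 31.1, 29.8 and 23.7 CPM and mutants 13.4, 13.5 and 13.8 CPM. Control replicate 3 stood apart from the other controls, yet remained far above every mutant. The log2 fold change was -1.06 ± 0.11 (95% interval from -1.30 to -0.81, adjusted p = 0.000166), and mutants held 48.1% of the control level. When the fold change was tested against the threshold of 0.5 itself, *Aurka* was the 1 gene of the 10 that passed (adjusted p = 0.00667), followed by *Ccnb1* (0.0287) and *Ccna2* (0.0334). *Plk1* (ENSMUSG00000030867, chr7:122159439-122169873, plus strand), Polo-like kinase 1, measured 37.4, 36.0 and 33.2 CPM in controls and 20.1, 23.8 and 20.3 CPM in mutants. Mutant replicate 2 was the highest mutant and still lay below all controls. Its log2 fold change was -0.73 ± 0.09 (adjusted p = 0.000480). Opposite *Plk1* lies *Gm44985*, which shares 156 exonic bases (7.09% of the length of *Plk1*) and held 3 to 12 counts per library.

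*Cdc25b* (ENSMUSG00000027330, chr2:131186949-131198497, plus strand) encodes the phosphatase that starts the activation of Cdk1 at the centrosome. It measured 65.1, 67.0 and 69.4 CPM in controls and 49.3, 47.6 and 49.5 CPM in mutants. The groups were well apart and tight. With a log2 fold change of -0.46 ± 0.06 and a 95% interval from -0.59 to -0.33, *Cdc25b* passed the p threshold (adjusted p = 0.000519) but not the fold threshold. *Spef1* overlaps *Cdc25b* on the opposite strand over 92 exonic bases, 2.47% of the length of *Cdc25b*, and measured 33.7 to 36.9 CPM in controls and 31.6 to 33.0 CPM in mutants (adjusted p = 0.195).

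*Foxm1* (ENSMUSG00000001517, chr6:128362967-128376146, plus strand) encodes the forkhead transcription factor that binds many G2 and M phase genes together with MuvB and B-Myb. It measured 111, 108 and 95.6 CPM in controls and 70.9, 67.2 and 70.8 CPM in mutants. Control replicate 3 was again the lowest control, and no mutant reached it. The log2 fold change was -0.59 ± 0.07 (adjusted p = 0.000222), leaving 66.3% of the control level. *Tex52*, on the same strand, shares 144 exonic bases (2.50% of the length of *Foxm1*) and held 4 to 10 counts per library, and the overlapping *Gm44596* held 0 counts in every library.

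**Figure D3:**
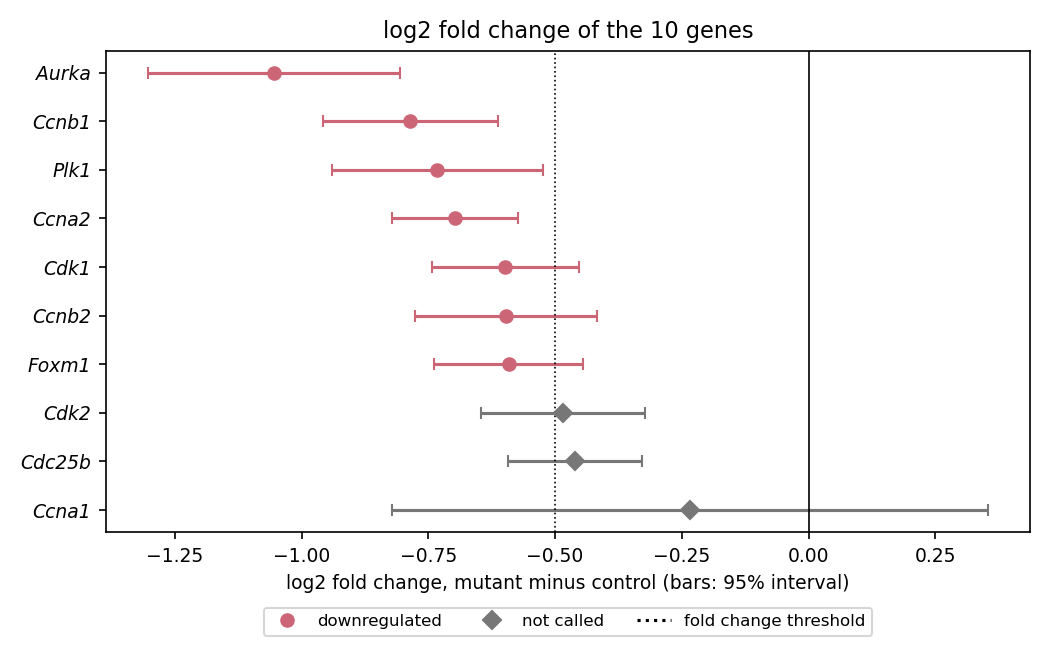
log2 fold change of each of the 10 genes, mutant minus control, with 95% intervals. Circles mark the 7 downregulated genes, diamonds the 3 that were not called (*Cdk2*, *Cdc25b* and *Ccna1*), and the dotted line the fold threshold. The interval of *Aurka* lies wholly below -0.80.

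Read by library, the 10 genes gave the same picture in every mutant. Their summed level was 604, 595 and 567 CPM in controls and 378, 380 and 380 CPM in mutants. Thus the mutant sums differed by less than the control sums did. *Ccna2*, *Ccnb2*, *Cdk2* and *Aurka* varied among mutants by less than counting alone would give, so close sums do not show lower variability. Without *Ccna1*, the median deviation from the control mean (log2) was 0.08, 0.02 and -0.07 in controls and -0.61, -0.64 and -0.60 in mutants. Control replicate 3 was the lowest control for 6 of the 10 genes, namely *Ccna1*, *Ccna2*, *Cdk2*, *Aurka*, *Plk1* and *Foxm1*. Mutant replicate 3, which held the most choroid plexus RNA, did not stand apart in these sums.

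**Figure D4:**
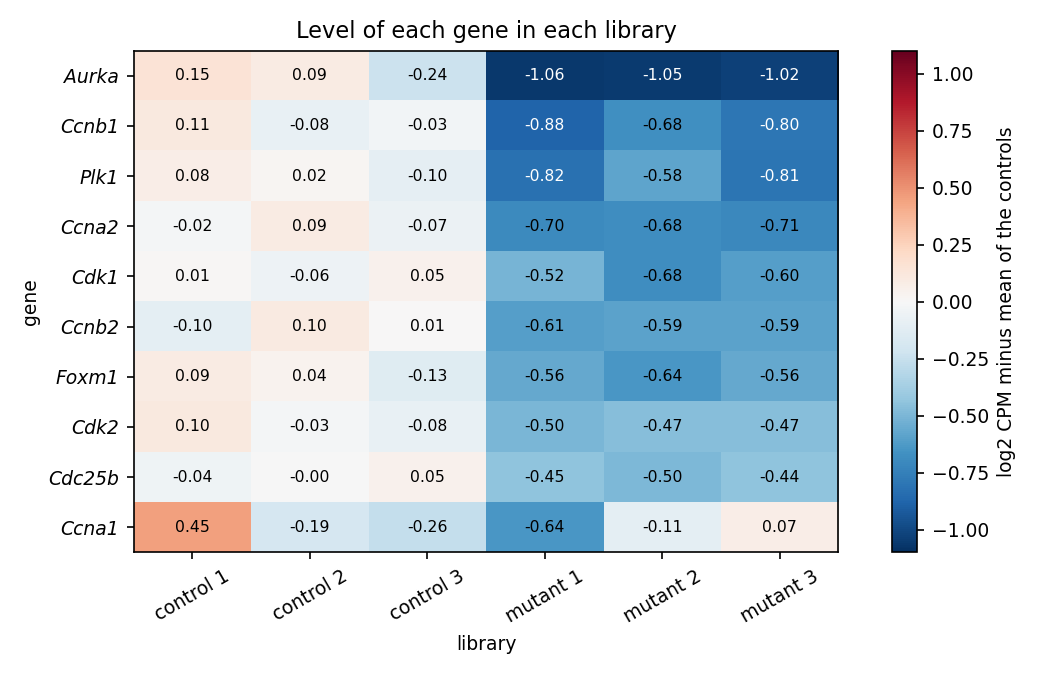
Heat map of each gene (rows) in each of the 6 libraries (columns), with the colour and the printed value giving log2 CPM minus the mean of the controls, red above and blue below it. Mutant libraries lie between -1.06 and -0.44 for every gene except *Ccna1*, whose mutant values run from -0.64 to 0.07.

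Levels between genes were compared per length, as FPKM, the count per kilobase of gene length scaled to library depth. In controls *Ccna2* was highest at 28.3 ± 1.59 FPKM, followed by *Ccnb2* at 23.2 ± 1.64 FPKM, with no overlap between libraries of these genes. *Foxm1* (18.1 ± 1.43), *Cdc25b* (17.9 ± 0.573), *Ccnb1* (16.7 ± 1.15), *Plk1* (16.0 ± 0.965) and *Cdk1* (14.7 ± 0.524 FPKM) followed, each overlapping the next. *Aurka* (11.0 ± 1.54 FPKM), *Cdk2* (8.30 ± 0.544 FPKM) and *Ccna1* (2.14 ± 0.616 FPKM) came last and did not overlap their neighbours. In mutants *Ccna2* (17.5 ± 0.0876 FPKM) and *Ccnb2* (15.4 ± 0.118 FPKM) again led. The order of *Aurka* and *Cdk2* turned around, with *Cdk2* at 5.96 ± 0.0632 FPKM and *Aurka* at 5.33 ± 0.0820 FPKM and separate ranges. Among mutants the CPM of each varied by 1.29% (SD over mean). Counting alone would give 4.07% for *Cdk2* and 6.74% for *Aurka*, so the narrow ranges understate the uncertainty of this order. *Cdc25b* (13.0 ± 0.349 FPKM) likewise moved above *Foxm1* (11.6 to 12.3 FPKM), although these overlapped in controls. Per counted length *Ccnb2* thus stood above *Ccnb1* in both groups, while *Ccnb1* had the higher CPM. Orders by FPKM rest on counted lengths, which merge all annotated exons of a gene. For *Ccnb1* these were 4217 bases from 7 transcripts, and for *Ccnb2* 1531 bases from 1 transcript. Which B-type cyclin mRNA was more abundant therefore cannot be told from these values.

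Ratios within a library asked whether partners changed in the same proportion. They were compared by a two-sided exact permutation test, which cannot go below 0.1 with 3 against 3, and adjusted over the 6 ratios examined. The log2 ratio of *Plk1* to *Aurka* was 0.27, 0.27 and 0.49 in controls and 0.58, 0.82 and 0.56 in mutants, higher in every mutant by a mean of 0.31 (exact p = 0.1, adjusted p = 0.2). The log2 ratio of *Ccna2* to *Cdk2* was 1.03, 1.28 and 1.18 in controls and 0.96, 0.95 and 0.93 in mutants, lower in every mutant (difference -0.21, exact p = 0.1, adjusted p = 0.2). The log2 ratio of *Cdc25b* to the gene of its opponent *Wee1* was 0.11 higher in mutants (exact p = 0.1, adjusted p = 0.2), with mutant replicate 2 at 0.87 just above control replicate 3 at the same rounded value. For *Cdk1* to *Cdk2*, *Ccnb1* to *Ccnb2* and *Ccnb1* to *Cdk1* the groups overlapped, with differences of -0.12, -0.19 and -0.19 (exact p = 0.3, 0.2 and 0.3, each adjusted to 0.3). None passed a threshold of 0.05, which this design cannot reach.

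The partners of the 10 genes were read from 9 lists by role, holding 98 genes of which 96 were tested. Of these, 42 were downregulated (43.8%) and 0 upregulated, against 3.63% and 3.03% of all tested genes. The counts of each list below stand against the same shares. The lists were chosen with earlier results of these data known, so these counts are descriptive. The kinases that oppose Cdk1 activation fell with their target: *Wee1* went from 36.6, 38.2 and 38.0 CPM to 23.9, 26.1 and 26.0 CPM (log2 fold change -0.57, adjusted p = 0.000604). *Pkmyt1*, which encodes Myt1, fell as well, at a log2 fold change of -0.50 (adjusted p = 0.00251) that lay on the fold threshold. *Cdc25a* (-0.38, adjusted p = 0.0166) and *Cdc25c* (-0.41, adjusted p = 0.0136) did not pass, so 2 of these 4 genes were called, with a median of -0.46. The count was 1 of 4 with control replicate 1, mutant replicate 2 or mutant replicate 3 left out, under DESeq2, other scalings and other filters and in the fits on FPKM, and 0 when the fold change was tested against 0.5.

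Mastl, the Greatwall kinase, shields Cdk1 substrates by inhibiting the B55 form of protein phosphatase 2A. In this list of 7 genes, *Mastl* (-0.74, adjusted p = 0.000820) and the neuronal B55 subunit *Ppp2r2c* were downregulated, with a median of -0.04. *Ppp2r2c* fell from 801, 779 and 782 CPM to 386, 381 and 366 CPM (-1.06, adjusted p = 9.31e-07). The inhibitor *Ensa* (0.06, adjusted p = 0.501) and the subunit *Ppp2r2b* (-0.04, adjusted p = 0.671) overlapped between groups.

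Among activators and relatives of the Aurora and Polo kinases, 5 of 12 tested genes were downregulated, with a median of -0.50. They were the Aurora A activator *Tpx2* (-0.64, adjusted p = 0.000105), the centriole kinase *Plk4* (-0.72, adjusted p = 0.000198) and the passenger complex genes *Birc5* (-0.76, adjusted p = 0.000198), *Aurkb* (-0.80, adjusted p = 0.000217) and *Cdca8* (-0.60, adjusted p = 0.00102). *Incenp*, the scaffold of the same complex, passed on p alone (-0.48, adjusted p = 0.000198). The Polo relative *Plk2*, an early response gene of neurons, measured 56.6 to 62.5 CPM in controls and 66.7 to 70.7 CPM in mutants (0.19, adjusted p = 0.0465). *Plk5*, a relative expressed in the brain, had a log2 fold change of 0.60 with an adjusted p of 0.0109, just short of the p threshold, which it passed under library size scaling alone (0.62, adjusted p = 0.00958). *Plk2*, *Plk5* and *Ajuba* (0.33, adjusted p = 0.0396) were the members of this list in which every mutant exceeded every control, an arrangement seen in 20.4% of all tested genes.

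Other cyclins and Cdk subunits gave 4 downregulated genes of 8 tested, with a median of -0.41. These were *Ccnf* (-0.93, adjusted p = 0.000354), the Cdk-binding subunits *Cks2* (-0.86, adjusted p = 0.000319) and *Cks1b* (-0.75, adjusted p = 0.000940), and *Ccne2* (-0.67, adjusted p = 0.00509). The Cdk-activating kinase, which also serves general transcription, overlapped between groups in all 3 subunits: *Cdk7* (-0.08, adjusted p = 0.573), *Ccnh* (-0.04, adjusted p = 0.768) and *Mnat1* (-0.07, adjusted p = 0.661). In the machinery that destroys cyclins, 3 of 18 genes were downregulated, with a median of -0.12: the coactivator *Cdc20* (-0.84, adjusted p = 3.57e-05), the inhibitor *Fbxo5* (-0.70, adjusted p = 0.000347) and the ubiquitin-conjugating enzyme *Ube2c* (-0.94, adjusted p = 0.000138). No core subunit of the anaphase-promoting complex was called, the most abundant being *Anapc5* (-0.06, adjusted p = 0.420) and *Anapc1* (-0.04, adjusted p = 0.724).

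The transcription partners of *Foxm1* gave 4 downregulated genes of 10, with a median of -0.38. These were *Mybl2*, which encodes B-Myb (-0.54, adjusted p = 0.00155), the MuvB subunit *Lin9* (-0.64, adjusted p = 0.000772), the E2F partner *Tfdp2* (-0.84, adjusted p = 2.94e-05) and the pocket protein gene *Rbl1* (-0.54, adjusted p = 0.00120). The histone-binding subunit *Rbbp4* (-0.35, adjusted p = 0.00171) and *Tfdp1* (-0.19, adjusted p = 0.0231) were not called. With limma on log2(FPKM + 1), and in the test of the fold change against 0.5, 1 of the 10 was called. Of 16 classical Foxm1 targets 13 were downregulated, with a median of -0.71. *Cenpa*, the centromeric histone (-0.85, adjusted p = 4.84e-05), *Ect2* (-0.94, adjusted p = 8.89e-05) and *Racgap1* (-0.50, adjusted p = 9.29e-05), both regulators of cytokinesis, had the smallest p. *Cenpb* overlapped between groups (-0.10, adjusted p = 0.191), and *Prc1* (-0.29, adjusted p = 0.00652) did not reach the fold threshold. Without mutant replicate 3, 8 of the 16 were called. With limma 7 were called on log2(FPKM + 1) or log2(FPKM + 0.1) and 5 without a filter, and the test against 0.5 called 2.

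Among substrates and effectors of mitotic Cdk1, 7 of 18 were downregulated, with a median of -0.33, led by the spindle motor *Kif11* (-0.92, adjusted p = 1.49e-05). Of the nuclear lamina genes, *Lmnb1* (-0.59, adjusted p = 1.87e-05) and the lamin B receptor gene *Lbr* (-0.85, adjusted p = 2.39e-05) fell. *Lmnb2* was lower in every mutant but did not reach the fold threshold (-0.42, adjusted p = 0.00119), while *Lmna*, characteristic of differentiated cells, measured 23.1 to 24.4 CPM in controls and 31.4 to 36.4 CPM in mutants (0.48, adjusted p = 0.00301, not called). *Lmna* was called upregulated when mutant replicate 2 was left out (0.53, adjusted p = 0.00256). The abundant *Stmn1* (-0.21, adjusted p = 0.00564) and *Ncl* (-0.24, adjusted p = 0.00509) were not called. Of the proliferation markers, *Mki67* fell from 330, 496 and 410 CPM to 154, 221 and 144 CPM (-1.25, adjusted p = 0.000722) and *Top2a* from between 279 and 297 CPM to between 164 and 180 CPM (-0.72, adjusted p = 1.54e-05). *Pcna* did not reach the fold threshold (-0.46, adjusted p = 0.000288).

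**Figure D5:**
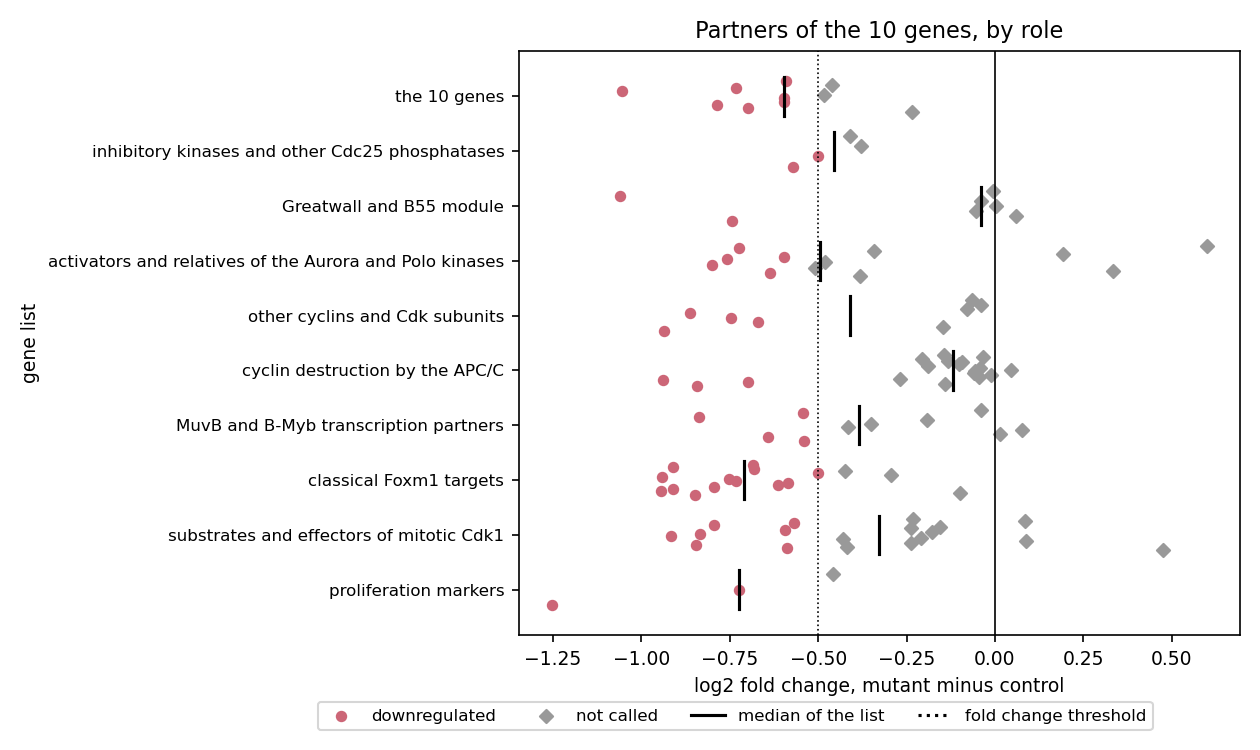
log2 fold change, mutant minus control, of every tested gene in the 9 lists of partners and of the 10 genes themselves, with the median of each list as a vertical bar. Circles mark downregulated genes and diamonds genes that were not called. No gene to the right of 0 was called, and the Foxm1 targets (median -0.71) lie furthest left of the lists that hold more than 3 genes.

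Markers of cell types moved in both directions. Of 5 GNP markers 4 were downregulated, and their summed level went from between 2371 and 2486 CPM in controls to between 1511 and 1628 CPM in mutants. *Barhl1* fell by 2.59, *Mfap4* by 2.10 and *Pax6* by 0.99 on the log2 scale, beside *Atoh1*, whose log2 fold change of -6.40 rests on 4 to 10 counts per mutant library. Granule neuron markers were downregulated in 3 of 4 genes, with sums of 996 to 1069 CPM in controls and 603 to 642 CPM in mutants. By contrast, 3 of 6 Purkinje cell markers (1090 to 1165 CPM against 1530 to 1874 CPM), 2 of 5 astrocyte and Bergmann glia markers (2149 to 2242 against 3141 to 3389 CPM), 3 of 5 oligodendrocyte lineage markers (386 to 407 against 453 to 483 CPM), 1 of 4 microglial markers (65.5 to 71.5 against 83.7 to 97.2 CPM) and 2 of 4 meningeal markers (334 to 356 against 499 to 595 CPM) were upregulated. In the oligodendrocyte lineage list *Pdgfra* went the other way, at 185 to 207 CPM in controls and 139 to 145 CPM in mutants (-0.45, adjusted p = 0.000307, not called). Among markers of GABAergic progenitors, *Ptf1a* alone of 4 was called, downregulated, while the sum went from between 191 and 195 CPM to between 244 and 245 CPM. No gene was called among 4 endothelial markers (234 to 245 against 225 to 237 CPM), 5 erythrocyte markers (98.6 to 106 against 82.2 to 117 CPM) and 3 choroid plexus markers (71.1 to 135 against 9.19 to 721 CPM). No marker was at 0 in any library. The part of these shifts in the lower levels of the 10 genes was not tested.

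Outside the 10 genes and the lists, the genes whose CPM followed the mean profile of the 10 most closely over the 6 libraries were *Ptk2* (Pearson r = 0.998), *Dek* (0.998), *Spag5* (0.998), *Ptch1* (0.997) and *Smarca5* (0.997). These correlations are descriptive, since the 6 libraries fall into a control and a mutant cluster that fix most of each value. *Dek*, which encodes a chromatin protein, was downregulated (-0.63, adjusted p = 3.18e-05). *Spag5*, a mitotic spindle gene, was lower by less than the fold threshold (-0.45, adjusted p = 0.000694), as were *Ptch1*, the Sonic hedgehog receptor (-0.33, adjusted p = 0.000712), the chromatin remodeller *Smarca5* (-0.43, adjusted p = 0.000295) and *Ptk2*, the focal adhesion kinase gene (-0.27, adjusted p = 0.00224).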

How the data were processed

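The authors extracted total RNA from P1 cerebella with TRIzol, and libraries were made from poly(A) RNA. Per the submitters' processing notes, reads were aligned to mm10 with HISAT2 2.0.5 and assigned to genes with featureCounts 1.5.0-p3. The deposited table held raw counts and the FPKM made from them by the authors for 54532 genes in 6 libraries. The strand setting was not stated. Gene coordinates and lengths of the 10 genes equalled those of GENCODE M21 on GRCm38.

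Counts were tested with edgeR 4.0.16 in R 4.3.3 (filterByExpr, trimmed mean of M-values normalization, glmQLFit and glmQLFTest) on the whole table, 3 mutant against 3 control libraries, without covariates. The 17505 genes tested held 99.8% of counts. Totals ran from 15391854 to 17178478 counts, and the common dispersion was 0.0105. As in the study, calls required both an adjusted p below 0.01 and a log2 fold change larger than 0.5 in size. SE was taken from the fold change and its F statistic. The procedure was tested on simulated data. Ratios were tested by exact permutation over 20 arrangements. Copies were compared with blastn 2.17.0.

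The members and the gene lists were chosen with earlier results of these data known. Named genes were the 10 members; in each partner list up to 3 called genes with the smallest p, called genes of opposite direction and up to 2 uncalled genes of largest mean count; 5 genes of at least 10 CPM most alike in profile; overlapping genes and pseudogene copies; and cell type markers. *Aurkb*, *Cdca8*, *Plk5*, *Ajuba*, *Ccne2*, *Mnat1*, *Mybl2*, *Lmna* and *Lmnb2* were named after their values were seen. *Aurkc* and *Ccnb3* were not tested because of low counts.

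Alternatives were DESeq2 1.42.0, other scalings and filters, limma 3.58.1 on log2(FPKM + 1) or log2(FPKM + 0.1), a Y-chromosome covariate, a replicate block, other thresholds and leaving out each library.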

Additional observations from a re-analysis of the deposited data

How the results depend on the processing

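The 7 downregulated genes kept their call in all 16 other fits, and 7 or 8 of the 10 were called with a library left out. Requiring the fold change to exceed 0.5 in the test itself left 1 of the 10, 145 downregulated and 30 upregulated genes of all genes (635 and 530 in the test as reported), and 8 of 42 downregulated partners. An adjusted p under 0.05 with no fold threshold gave 2252 lower and 2136 higher genes. At that setting 9 of the 10 genes and 62 partners were lower, and 4 partners higher. With limma on log2(FPKM + 1), 388 genes were downregulated and 281 upregulated, and with no filter 286 and 176, with 24 partners downregulated; log2(FPKM + 0.1) gave 335 upregulated. Library size scaling alone and counts without a filter each called 1 partner upregulated, *Plk5*. Leaving out each library gave 492 to 778 downregulated and 349 to 569 upregulated genes, the lowest upregulated count being that without mutant replicate 3, and 34 to 42 downregulated and 0 or 1 upregulated partners. Counts in the lists by role moved as well. They fell in all 9 lists in the test against 0.5, to between 0 and 2 genes. With an adjusted p under 0.05 and no fold threshold they rose in several lists, as from 7 to 14 among Cdk1 substrates and from 5 to 9 among Aurora and Polo relatives. In others, such as the Greatwall list, they stayed the same. The cause of these shifts was not tested. Of single genes, *Ccna1* ranged from -0.39 to 0.027 with a library left out, reversing without control replicate 1, and *Cdk2* passed the fold threshold at -0.51 with the Y-chromosome covariate and at -0.52 without control replicate 3. The 6 ratios kept their direction.

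Deviations of same-numbered libraries correlated at 0.26, 0.30 and -0.16, and those of differently numbered libraries at between -0.44 and 0.28. Every positive value joined libraries alike in Y-chromosome expression, and every negative value joined unlike ones. With 3 libraries a group, these values cannot tell whether replicate numbers pair the libraries. With the replicate number as a block, 7 of the 10 genes, 43 partners and 696 genes in all were downregulated and 561 upregulated. *Ccna1* had the fewest counts of the 10 genes, at 43 to 81 per library, and also varied between libraries by more than counting alone would give. With 3 libraries a group, no permutation test could pass 0.05.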
